A study of Mus musculus with 8 samples.

Results

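A set of 10 serine protease genes of the mouse granzyme B and mast cell chymase locus on chromosome 14 were followed in natural killer (NK) cells from spleen and from tumour. The 10 genes were selected on their names as proteases of the locus, Gzmb, Gzmc, Gzmd, Gzme, Gzmf, Gzmg, Gzmn, Cma1, Mcpt8 and Ctsg, out of 45706 genes in the deposited tables. They were proposed with earlier results of the same tumour against spleen contrast known, so their differences between the groups, and any count of them past a threshold, are a description, and no p-value of a difference is given for them.

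The comparison was between 4 and 4 RNA libraries, titled spNK for splenic NK cells and tuNK for tumour-infiltrating NK cells. In both groups the mice were BALB/c and bore a CT26_β2m-/- tumour under the skin, a mouse colorectal carcinoma line that lacks β2-microglobulin and so MHC class I at its surface; no other allele and no treatment is named. The tissue label contradicts the title in all 8 libraries, since those titled spNK are labelled as tumour and those titled tuNK as spleen. Groups here follow the titles, which the names of the deposited columns, SPNK and TUNK, share. Every direction below would turn if the tissue labels were right. Summed markers of mesenchymal and carcinoma cells, given below, were low in every library titled spNK and high in every library titled tuNK. Which of the labels is right was not tested. Tissue was digested with enzymes, tumour leukocytes were enriched on Percoll, and cells were sorted magnetically and by flow cytometry. The age of the mice, the markers of the sort and whether each library came from a different animal are stated in no label, so the spread between libraries may be technical. The spleens are those of tumour-bearing mice, and no spleen or tumour of another kind was analysed here.

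The libraries held 38745733 to 53886933 estimated counts. Log2 expression correlated at 0.977 to 0.990 within a group and at 0.766 to 0.798 between the groups. All 12 NK cell marker genes were detected in both groups, and their summed level was 13139 to 18540 CPM (counts scaled to library size) in spNK and 4268 to 6011 in tuNK. Summed markers of mesenchymal and carcinoma cells were at 20.3 to 59.0 CPM in spNK and 4208 to 5966 in tuNK, with 12 of 14 genes higher and 0 lower, so these markers were high in the libraries titled tuNK. Macrophage and monocyte markers summed to 977 to 1133 and 368 to 508 CPM, dendritic cell markers to 844 to 1190 and 623 to 872, B and plasma cell markers to 208 to 1096 and 135 to 141, and T cell markers to 196 to 233 and 77.8 to 123, with Cd3e, Cd8b1 and Themis at 0 in tuNK. Ccr2 and Itgam made up most of the macrophage and monocyte sum in every library, while Csf1r reached only 8.45 CPM in spNK and 0.181 in tuNK. Of 9 tested genes of that list, 1 was higher and 4 lower, and Cd14 stood at 51.3 to 65.8 CPM in tuNK. Irf8 was the largest part of the dendritic cell sum, and Xbp1 and Sdc1 nearly all of the B and plasma cell sum in tuNK. In bulk RNA, fewer cells of a type and less RNA of a gene per cell cannot be told apart. The part of these other cells in the results was not tested. A second scaling on 32 genes expressed across leukocytes is therefore given where it matters, on which the median gene was 1.84 higher in tuNK on the log2 scale, against 0.02 on the usual scaling. On it edgeR called 79.4% of the 14006 genes tested higher and 5.44% lower, against which every count on that scaling below is to be read.

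Granzymes are serine proteases that cytotoxic lymphocytes store in lysosome-like granules with perforin and release onto target cells. Granzyme B cleaves after aspartate and starts apoptosis of the target through caspases and Bid. In the mouse its gene lies beside a rodent-expanded row of related genes, Gzmc to Gzmn, and the same locus continues into proteases of other blood cells: cathepsin G of neutrophil granules, Mcpt8 of basophils and the chymases of mast cells. Cma1, the mast cell chymase gene, is also known from the RNA of mature mouse NK cells.

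In GRCm38, with GENCODE M21 gene models, the members span chromosome 14 from 55941451 to 56262260, a length of 320.8 kb, and all 10 lie on the minus strand. Gzmb (ENSMUSG00000015437, 56258838 to 56262260) lies at one end. Measured between start sites, Gzmc follows at 27.6 kb, Gzmf at 50.8 kb, Gzmn at 87.7 kb, Gzmg at 102.7 kb, Gzmd at 129.7 kb and Gzme at 141.6 kb, so that the 7 granzyme genes occupy 144.6 kb. Ctsg stands at 159.7 kb, Mcpt8 at 177.0 kb and Cma1 at the other end at 317.6 kb. Another 16 annotated genes lie between the outermost members, 5 of them protein-coding and 9 of them present in the tables.

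The 200 bases before the start of 6 members are printed because these genes differ most in how they behaved: Gzmb, present in both groups; Gzmc, Gzmd and Gzmf, at or near 0 in spNK and present in tuNK; Gzmn, at 0 everywhere; and Cma1, far lower in tuNK. Sequences are RefSeq's for GRCm38.p6, in which all 10 members matched by symbol, and are written 5′ to 3′ on the gene's strand. RefSeq's start of Gzmb lies upstream of GENCODE's. Capitals mark the letters TGTGGT or their reverse complement ACCACA, a core bound by RUNX factors, and TGACGTCA, the cyclic AMP response element (CRE).
Gzmb (chr14:56262335-56262534, minus strand): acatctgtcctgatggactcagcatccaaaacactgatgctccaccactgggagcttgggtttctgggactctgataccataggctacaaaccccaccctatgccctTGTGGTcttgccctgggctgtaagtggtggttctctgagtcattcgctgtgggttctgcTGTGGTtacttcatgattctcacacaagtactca
Gzmc (chr14:56234658-56234857, minus strand): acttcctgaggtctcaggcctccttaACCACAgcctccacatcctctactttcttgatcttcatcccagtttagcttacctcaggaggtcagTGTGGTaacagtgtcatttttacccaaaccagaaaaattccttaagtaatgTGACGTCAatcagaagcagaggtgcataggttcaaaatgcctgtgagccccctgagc
Gzmd (chr14:56132594-56132793, minus strand): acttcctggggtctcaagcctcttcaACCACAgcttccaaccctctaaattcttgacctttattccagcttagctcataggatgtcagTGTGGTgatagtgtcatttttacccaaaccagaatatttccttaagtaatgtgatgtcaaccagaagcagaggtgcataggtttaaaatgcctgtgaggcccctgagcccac
Gzmf (chr14:56211408-56211607, minus strand): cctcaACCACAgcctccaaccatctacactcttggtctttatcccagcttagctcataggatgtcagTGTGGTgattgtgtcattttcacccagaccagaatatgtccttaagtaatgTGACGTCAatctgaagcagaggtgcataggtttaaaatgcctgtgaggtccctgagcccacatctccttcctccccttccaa
Gzmn (chr14:56174600-56174799, minus strand): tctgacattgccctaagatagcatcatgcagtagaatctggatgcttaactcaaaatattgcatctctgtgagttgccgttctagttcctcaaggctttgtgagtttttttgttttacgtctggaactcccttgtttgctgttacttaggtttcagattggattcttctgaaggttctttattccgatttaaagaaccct
Cma1 (chr14:55944676-55944875, minus strand): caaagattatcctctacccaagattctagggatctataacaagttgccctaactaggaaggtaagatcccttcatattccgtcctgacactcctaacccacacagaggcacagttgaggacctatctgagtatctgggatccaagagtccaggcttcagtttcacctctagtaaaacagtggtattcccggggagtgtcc

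The Gzmc, Gzmd and Gzmf windows read alike, whereas those of Gzmb, Gzmn and Cma1 do not resemble them. Over the same 200 bases, identity between Gzmc, Gzmd, Gzme, Gzmf and Gzmg ranged from 67.6% to 94.0% in 10 pairs, with Gzmd and Gzme the most alike. Identity of these 5 with the other 5 members was 40.6% to 48.9% in 25 pairs, and the other 5 ranged from 41.8% to 51.4% among themselves. Gzmn therefore stood apart at its annotated start, with 44.0% to 48.9% identity to Gzmc to Gzmg, no more than among the other members. Its coding sequence was 70% identical to that of Gzmc and 79.8% to 83.1% identical to those of Gzmd to Gzmg. Whether the window of Gzmn is the counterpart of theirs was not tested. In the coding sequences, of 741 to 783 bases, Gzmc to Gzmg were 71.5% to 93.3% identical to each other, and Gzmb was closest to Gzmc at 76.2%. The 5 genes with like starts were the 5 that were at or near 0 in spNK and present in every tuNK library. They were also alike in coding sequence, and a link between their starts and their levels was not tested.

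**Figure D1:**
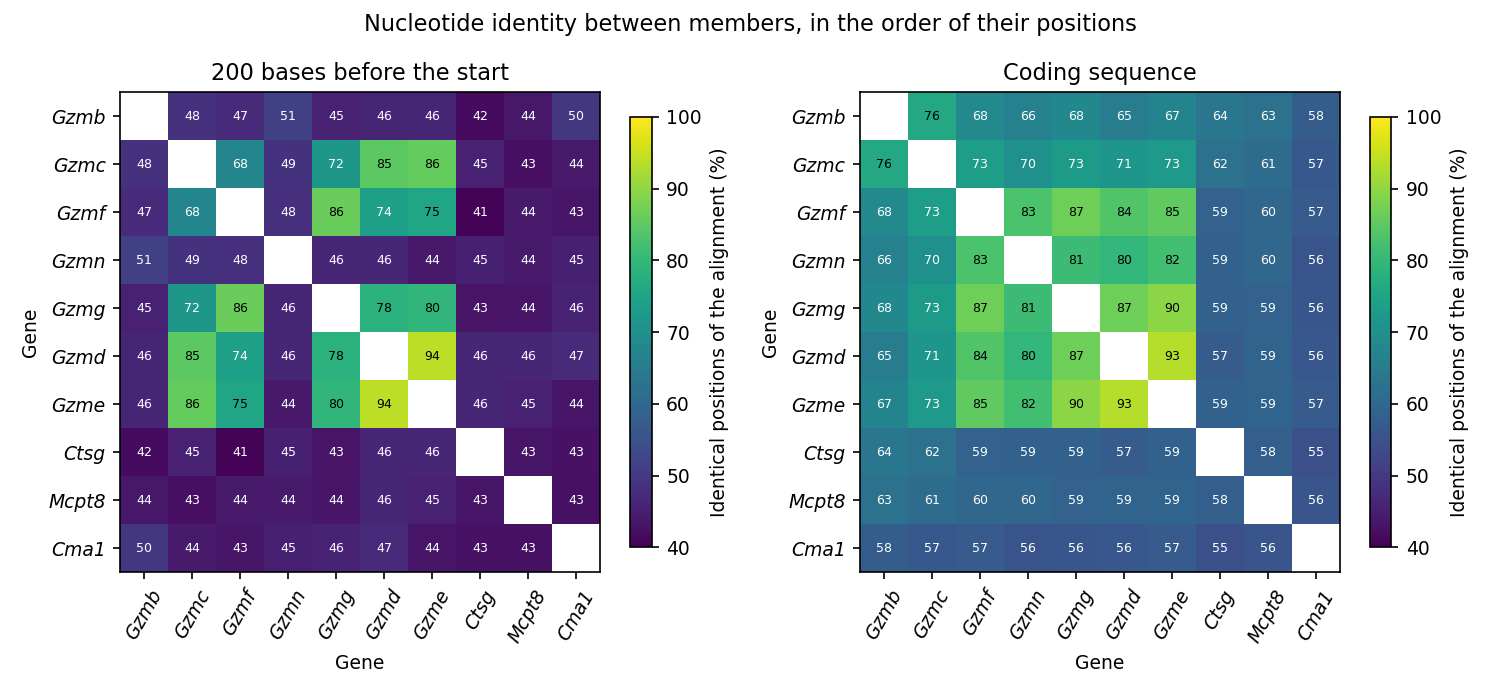
Identical positions (%) in pairwise alignments of the 10 members, in the order of their positions from Gzmb, for the 200 bases before the start (left) and the coding sequence (right); colour and printed value both give the identity. Gzmc to Gzmg form a block at 67.6% to 94.0% before the start, where Gzmn is at 44.0% to 48.9%; in the coding sequence Gzmn is at 79.8% to 83.1% to Gzmd to Gzmg.

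Letters of known motifs were looked for on both strands of the RefSeq promoters, which are 300 bases long, and the motifs were chosen with these sequences in view. The RUNX letters were in 9 of 10 members and in 16.8% of 32851 promoters. Gzmb held them 93 and 34 bases before its start, shown above, and Gzmc to Gzmg each held a pair, ACCACA followed by TGTGGT, which in Gzmc began 174 and 108 bases before the start. Gzmn held none, and the one match of Cma1 lay after its start. The CRE letters TGACGTCA were in Gzmc, Gzmf and Gzmg, 3 of 10 members, and in 1.79% of all promoters. In Gzmd and Gzme, whose windows are otherwise close to that of Gzmc, the 8 letters were not matched. The AP-1 letters TGANTCA were in Gzmb alone among the members and in 7.81% of promoters, the ETS letters GGAAGT or ACTTCC in 6 members and 23.8% of promoters, and the T-box letters GTGTGA or TCACAC in 3 members and 14.5% of promoters. The STAT letters TTCNNNGAA were in 2 members and 8.3% of promoters, TATAAA or TTTATA in 2 members and 13.6%, and the GATA letters AGATAA or TTATCT in 0 members and 11.2%. Since Gzmc to Gzmg share their sequence here, their matches are not independent of each other, and a match describes letters and not a bound site.

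Of the 10 members, 8 passed the filter on low counts, and edgeR's quasi-likelihood test at an adjusted p under 0.05 called 5 higher and 2 lower in tuNK. Those higher were Gzmb, Gzmc, Gzmd, Gzme and Gzmf, those lower were Cma1 and Ctsg, and Mcpt8 was not called. Gzmg and Gzmn were not tested. Across all 14006 genes tested 35.6% were called higher and 34.0% lower, 69.6% in either direction, and because the members were proposed from this contrast nothing is read from their count. Every tuNK library stood above every spNK library in CPM for 6 members, Gzmb to Gzmg, and below for 2, Cma1 and Ctsg; among all genes tested these shares were 34.4% and 32.7%. Gzmd, Gzme and Gzmf passed the filter through the tuNK libraries alone, and Ctsg through the spNK libraries alone, and so had to differ.

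**Figure D2:**
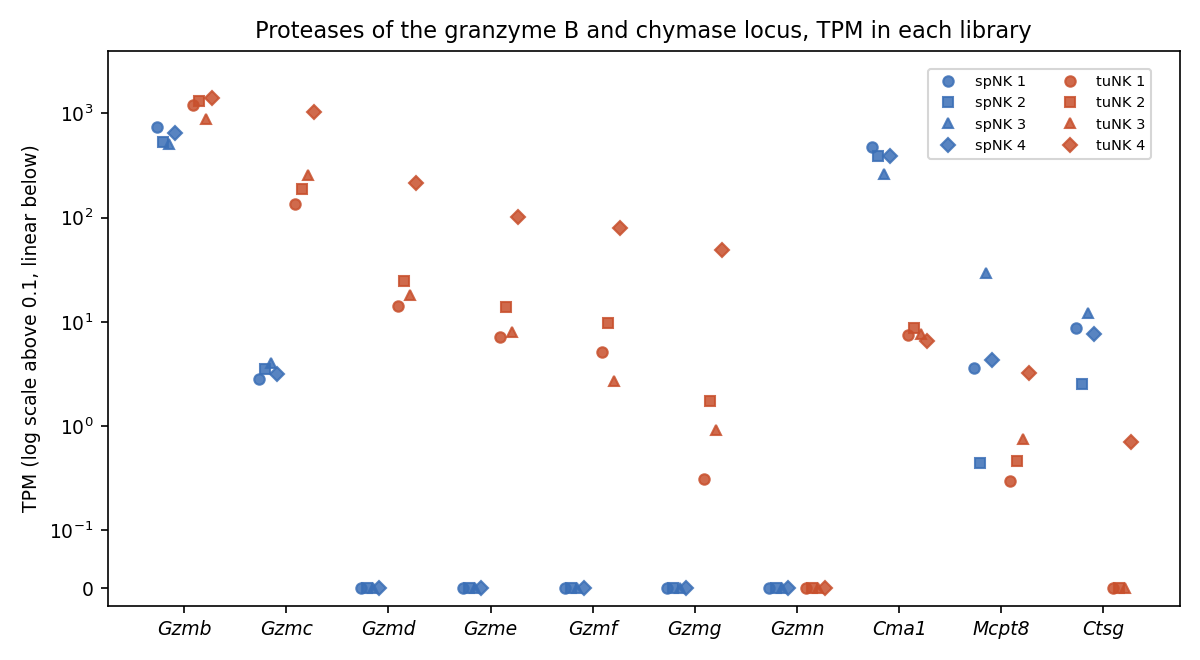
Length-scaled level (TPM, log scale above 0.1 and linear below) of the 10 members in each of the 4 spNK (blue) and 4 tuNK (red) libraries, 1 symbol per library. Gzmb lies within 513 to 1410 TPM in all 8, Gzmd to Gzmg are at 0 in spNK and highest in tuNK 4, and Cma1 falls from 264 to 475 TPM to 6.61 to 8.84.

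Granzyme B was abundant in both groups. Gzmb stood at 797, 589, 573 and 715 CPM in spNK 1 to 4 and at 1372, 1726, 1245 and 1946 CPM in tuNK 1 to 4. The groups did not overlap, and the lowest tuNK library lay above the highest spNK library. Means were 668 ± 107 and 1572 ± 322 CPM (SD, n = 4), a 2.35-fold difference and a log2 difference of 1.23 ± 0.16 (SE). In TPM, which divides by transcript length and so allows genes to be compared, Gzmb was at 611 ± 108 in spNK and 1206 ± 225 in tuNK. It was the member with the highest TPM in all 8 libraries. Scaled on the leukocyte genes, its log2 difference was 3.03.

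Gzmc, which encodes a granzyme that kills target cells without the caspase route of granzyme B, was present in spNK at a low level. It stood at 1.84, 2.36, 2.72 and 2.08 CPM in spNK and at 94.0, 149, 213 and 848 CPM in tuNK. The groups lay far apart, but the tuNK libraries also differed among themselves, with tuNK 4 well above the other 3. Means were 2.25 ± 0.377 and 326 ± 351 CPM (SD, n = 4), 145-fold apart, or 67.5-fold without tuNK 4. The log2 difference was 7.17 ± 0.86 (SE), 6.06 without tuNK 4 and 8.91 on the leukocyte scaling.

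Gzmd, Gzme, Gzmf and Gzmg, close paralogs in the row next to Gzmc, had 0 counts in all 4 spNK libraries. The limit of 3 counts per library is a mean of 0.0631 CPM in spNK, and folds are given against it as lower bounds that cover counting error alone. Gzmd stood at 10.2, 20.3, 15.8 and 186 CPM in tuNK 1 to 4, at least 920-fold higher than in spNK and at least 245-fold without tuNK 4. Gzme stood at 4.87, 10.7, 6.53 and 82.9 CPM, at least 416-fold higher and at least 117-fold without tuNK 4. Gzmf stood at 3.42, 7.39, 2.19 and 63.6 CPM, at least 304-fold higher and at least 68.6-fold without tuNK 4. All 3 genes were thus seen in every tuNK library, with tuNK 4 the highest each time. Gzmg rested on 8, 57, 29 and 1524 counts, or 0.207, 1.33, 0.737 and 38.9 CPM, so its lower bound of 163-fold became 12.0-fold without tuNK 4. Gzmn, the member of the row known from testis, had 0 counts in all 8 libraries, an upper limit of 0.0631 CPM in spNK and 0.0751 in tuNK.

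The 5 genes kept one order of level in each tuNK library. In TPM, Gzmc was followed by Gzmd, Gzme, Gzmf and Gzmg in all 4. In tuNK 1 these stood at 137, 14.3, 7.19, 5.17 and 0.312 TPM, and in tuNK 4 at 1022, 215, 101, 79.8 and 48.6 TPM. Gzmc exceeded Gzmd by 9.60, 7.66, 14.0 and 4.75 times in tuNK 1 to 4, so the gap between them was narrowest where both were highest. The order is not the order on the chromosome, where Gzmf follows Gzmc and Gzmd and Gzme lie farthest from Gzmb.

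The row differed from Gzmb in how much tuNK 4 exceeded the other tuNK libraries. In CPM, tuNK 4 stood at 1.34 times the mean of tuNK 1 to 3 for Gzmb, at 5.58 times for Gzmc, 12.0 for Gzmd, 11.3 for Gzme, 14.7 for Gzmf and 51.4 for Gzmg, and at 0.887 times for Cma1. Of 11906 tested genes with a tuNK mean of at least 1 CPM, 10 had a ratio of 5 or more, a share of 0.084%. Gzmf ranked 1, Gzmd 3, Gzme 4 and Gzmc 9 among them, and the other 6, named after their values were seen, were Alox5, Dscam, Piwil2, Hist1h3h, Epas1 and Dsc2. The filter on low counts drops genes that are low in most libraries. Genes high mainly in tuNK 4 could thus be left out, as Gzmg was, so the share may be too low. The summed TPM of Gzmc to Gzmn was 13.7%, 18.2%, 31.8% and 104% of that of Gzmb in tuNK 1 to 4, against 0.385%, 0.666%, 0.790% and 0.486% in spNK 1 to 4. In tuNK 4 the row therefore held as much RNA per transcript length as Gzmb itself.

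Near-identical copies can exchange reads when a quantifier assigns them. Of all windows of 60 bases, the read length, none of Gzmb was found in another gene's transcripts, and 1.44% of Gzmc, 14.6% of Gzmd, 12.6% of Gzme, 3.95% of Gzmf, 14.0% of Gzmg and 3.24% of Gzmn were. Gzmd and Gzme shared most with each other, 7.73% and 8.17% of their windows. Counts that were not whole numbers (tolerance 0.01), a mark of reads split between genes, occurred in 3 libraries for Gzmd and for Gzme and in 1 for Gzmc, Gzmf and Gzmg. The split between Gzmd, Gzme and Gzmg is thus less certain than their sum. The length the quantifier assigned to a gene, read from the ratio of counts to TPM and independent of its level, differed between the groups by a log2 value of -0.0017 for Gzmb, -0.0010 for Gzmc and -0.0013 for Cma1. Exact permutation tests (2-sided) over the 70 assignments of the 8 libraries gave p = 0.943, 0.943 and 0.914 (adjusted p = 0.943 for each of the 3; the smallest p the design allows is 0.0286). Gzmb and Gzmc have 1 annotated transcript each and Cma1 has 2, so this length had little room to differ. These tests therefore do not check how reads were assigned to genes.

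Mast cell chymase moved the other way. Cma1 stood at 365, 309, 211 and 303 CPM in spNK and at 6.21, 8.27, 7.62 and 6.54 CPM in tuNK. No library overlapped, and the tuNK libraries lay close together. Means were 297 ± 63.7 and 7.16 ± 0.956 CPM (SD, n = 4), 41.5-fold lower in tuNK, with a log2 difference of -5.37 ± 0.19 (SE) and of -3.53 on the leukocyte scaling. In spNK its TPM was second among the members, at 475, 389, 264 and 389 in spNK 1 to 4, below Gzmb in each. In tuNK it stood at 7.58, 8.84, 7.65 and 6.61 TPM. A share of 3.49% of its windows was shared, with the pseudogene Gm48934, which has no row in the tables.

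The other mast cell markers did not follow Cma1 across the spNK libraries. Of 12 with a value there, 10 were highest in spNK 3, where Cma1 was lowest, 2 in spNK 4, and 0 had the whole order of Cma1. Kit, the stem cell factor receptor, which mast cells share with other blood cells, stood at 54.3, 58.8, 70.7 and 64.4 CPM in spNK 1 to 4 and made up the larger part of the list's sum in spNK 1, 2 and 4. Cpa3, mast cell carboxypeptidase, stood at 1.81, 2.93, 12.8 and 8.77 CPM in spNK 1 to 4, and Mcpt4, another chymase, at 0.396, 0.746, 3.49 and 0.861. All 3, named after their values were seen, were lowest in spNK 1, where Cma1 was highest. The 16 mast cell markers other than Cma1 summed to 63.2 to 143 CPM in spNK and 19.9 to 29.9 in tuNK, with 6 of 8 tested genes lower and 1 higher; tested genes of this and the next lists that are at 0 in tuNK passed the filter through spNK alone and so had to differ. Tpsab1, Tpsg1, Mrgprb1 and Mrgprb2 were at 0 in all spNK libraries, and Tpsg1, Mcpt4, Mcpt1, Mcpt2, Fcer1a, Mrgprb1, Mrgprb2 and Hpgds in all tuNK libraries. Their part in the level of Cma1 was not tested.

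Ctsg, the neutrophil granule protease cathepsin G, was at 6.12, 1.83, 9.01 and 5.53 CPM in spNK. In tuNK it had 0 counts in 3 libraries and 25 counts, 0.638 CPM, in tuNK 4. Means were 5.62 ± 2.95 and 0.160 ± 0.319 CPM (SD, n = 4), 35.2-fold lower in tuNK and at least 75.3-fold without tuNK 4, and the log2 difference was -5.13 ± 1.25 (SE). Genes of neutrophils and their precursors did not share one order within spNK. Of 13 such markers with a value there, 6 were highest in spNK 3, as Ctsg was, 6 in spNK 1, among them Ngp, Camp and S100a8, and Ms4a3 in spNK 4. The whole order of Ctsg was shared by 2 of the 13, both named after their values were seen. Mpo, myeloperoxidase, stood at 46.6, 18.5, 70.7 and 41.4 CPM in spNK 1 to 4, and Prtn3, proteinase 3, at 13.8, 3.83, 15.9 and 9.81. Mpo, Elane, Ms4a3, Camp, Ltf and Ngp were at 0 in every tuNK library. The 14 markers of neutrophils and their precursors other than Ctsg summed to 41.4 to 169 CPM in spNK and 22.9 to 38.5 in tuNK. Nearly all of the tuNK sum was Mmp9, at 37.1, 26.8, 21.3 and 24.9 CPM in tuNK 1 to 4 and at most 0.279 in spNK. Of 11 tested genes, 9 were lower and 1 higher, and the part of these markers in the level of Ctsg was not tested.

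Mcpt8, a protease of basophil granules, was uneven in both groups. It stood at 2.09, 0.266, 17.5 and 2.49 CPM in spNK and at 0.181, 0.326, 0.559 and 2.40 in tuNK, so the groups overlapped. Means were 5.59 ± 8.0 and 0.867 ± 1.03 CPM (SD, n = 4), a ratio of 6.45 that was 1.87 without spNK 3 and 15.7 without tuNK 4, and its log2 difference of -2.69 ± 1.25 (SE) was not called. Of 9 other basophil markers with a value in spNK, 7 were highest in spNK 3 as well, Il3ra in spNK 1 and Il4 in spNK 4. Of the 7, named after their values were seen, Ms4a2, a chain of the IgE receptor, stood at 0.768, 0.941, 8.76 and 1.81 CPM, and Prss34 at 0.698, 0.107, 6.53 and 0. Cpa3, Fcer1a, Gata2, Hdc and Ms4a2 are on the mast cell list too. Within spNK, summed markers of mast cells, neutrophils and B and plasma cells were also highest in spNK 3, at 143, 169 and 1096 CPM. So were those of macrophages and of mesenchymal and carcinoma cells, at 1133 and 59.0. NK and T cell sums were lowest there, at 13139 and 196, and the dendritic cell sum was highest in spNK 1. In tuNK 4, where Mcpt8 reached 2.40 CPM, Ms4a2 was at 0 and Prss34 had 1 count. The 9 basophil markers other than Mcpt8 summed to 18.8 to 75.6 CPM in spNK and 10.2 to 11.7 in tuNK. Most of the tuNK sum was Il3ra, at 5.59 to 6.23 CPM, and Gata2, at 3.19 to 4.88. Of 5 tested genes, 4 were lower and 0 higher, and Fcer1a and Il4 were at 0 in tuNK. The part of these markers in the level of Mcpt8 was not tested.

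The make-up of protease RNA from the locus differed between the groups. The summed TPM of the 10 members was 1232, 928, 823 and 1062 in spNK and 1368, 1571, 1188 and 2888 in tuNK, so the groups overlapped only in that tuNK 3 lay below spNK 1. In spNK, Gzmb made up 60.4 ± 2.26% and Cma1 37.3 ± 4.10% of it (SD, n = 4), and Gzmc 0.352 ± 0.112%. In tuNK, Gzmb made up 73.9 ± 17.5%, Gzmc 19.7 ± 11.6%, Gzmd 2.90 ± 3.04% and Cma1 0.497 ± 0.184%. The share of Gzmb ranged from 48.8% in tuNK 4 to 87.4% in tuNK 1. In spNK the order by TPM was Gzmb, then Cma1, with no overlap between them, then Gzmc, Mcpt8 and Ctsg, whose ranges overlapped, and the other 5 were at 0.

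**Figure D3:**
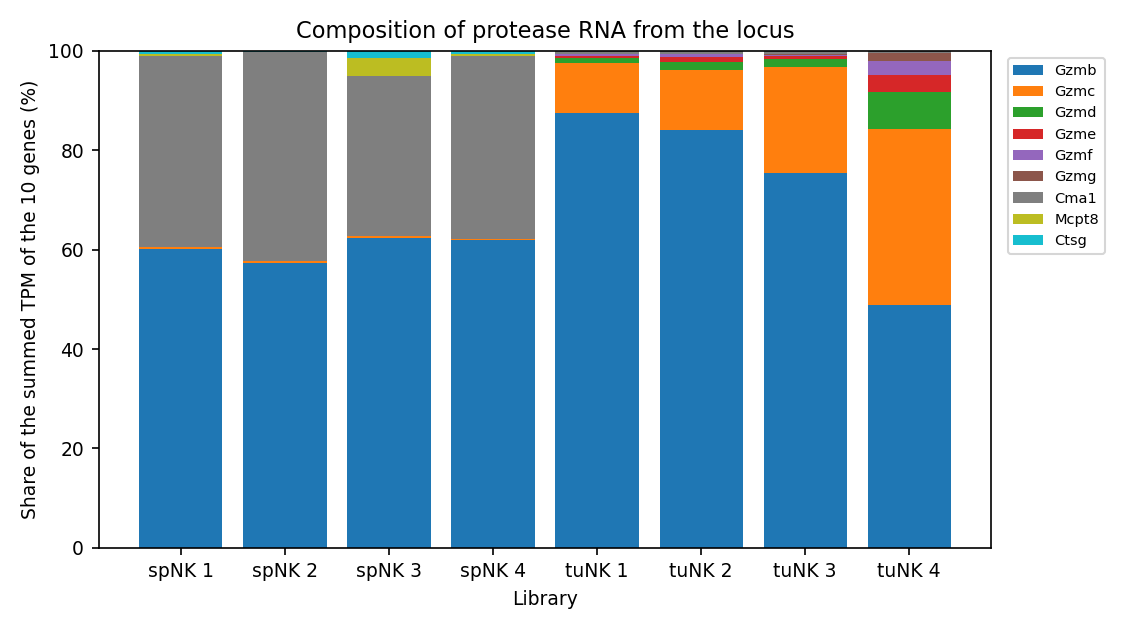
Share of the summed TPM of the 10 members (%, stacked to 100) in each library. Gzmb and Cma1 make up nearly all of it in spNK, and Gzmb with a Gzmc to Gzmg share that is largest in tuNK 4 in tuNK.

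Genes between and beside the members did not all move with their neighbours. The mast cell protease genes Mcpt1 and Mcpt4, which lie between Cma1 and Mcpt8, had 58 to 519 and 17 to 171 counts in spNK and 0 in tuNK; both passed the filter through spNK alone and so had to differ. Mcpt2 and Cma2 reached 103 and 10 counts in spNK and had 0 in tuNK, and Mcpt9 had 0 in all 8. Beyond Cma1, Sdr39u1, the nearest measured gene, was higher in tuNK by 1.62 ± 0.17 on the log2 scale (adjusted p = 1.14e-05), while Khnyn changed by -1.09 ± 0.10 (2.95e-06) and Nynrin by -2.93 ± 0.61 (0.00140), with SE and edgeR's adjusted p. On the leukocyte scaling Khnyn turned to 0.73 and Nynrin was no longer called (adjusted p = 0.125). Beyond Gzmb, the nearest measured gene, Atp12a, had 0 counts in all libraries and Cenpj differed by 0.46 ± 0.36 and was not called (adjusted p = 0.283). Differences in both directions thus occurred within 320.8 kb, with the granzyme end higher and the chymase end lower in tuNK.

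**Figure D4:**
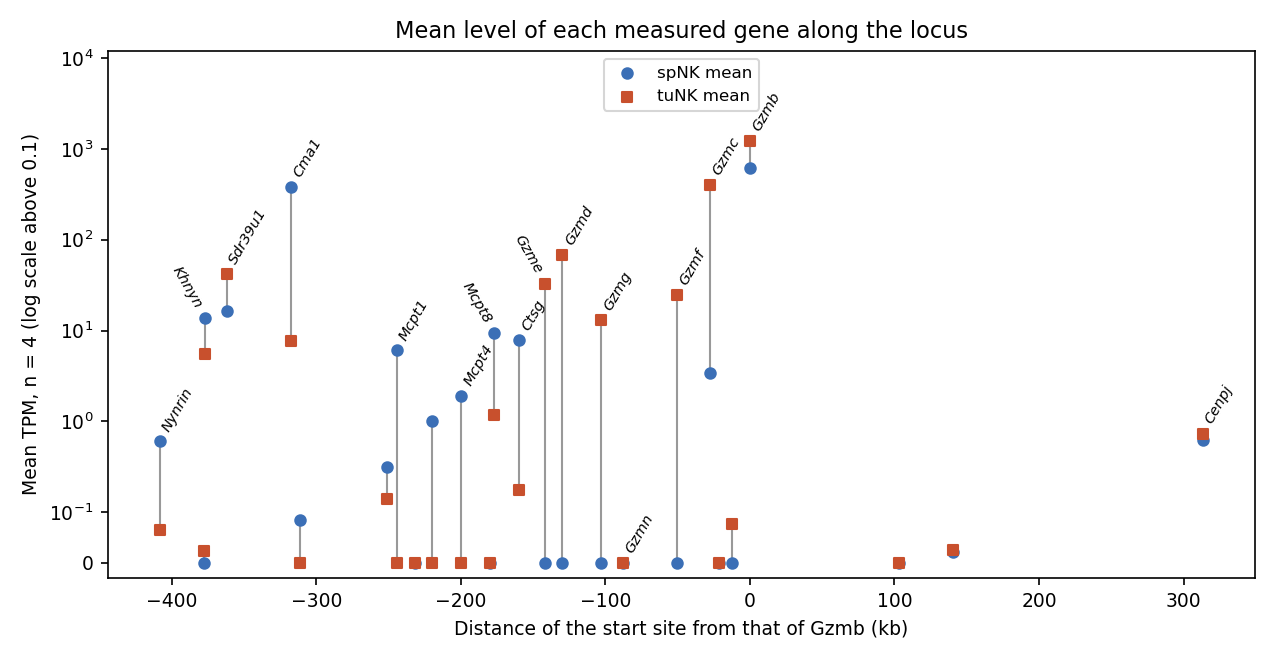
Mean TPM (n = 4, log scale above 0.1) of spNK (blue circles) and tuNK (red squares) for the measured members, the measured genes between them and the nearest measured coding genes on each side, against the distance of each start site from that of Gzmb in kb, negative towards Cma1; a grey line joins the means of a gene. From Gzme to Gzmb the tuNK mean is higher for every member except Gzmn, at 0 in both, and from Cma1 to Ctsg it is lower.

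The 3 granzymes encoded elsewhere in the genome went the opposite way to Gzmb and its row. Gzma, Gzmk and Gzmm encode a tryptase-like granzyme, its neighbour and a methionine-specific granzyme, and edgeR called all 3 lower, with a median log2 difference of -2.24 against 0.02 over all genes tested. Gzma stood at 7298 ± 1165 CPM in spNK and 2477 ± 473 in tuNK (log2 difference -1.56 ± 0.16, adjusted p = 8.89e-06), Gzmk at 40.0 ± 7.21 and 8.46 ± 1.42 (-2.24 ± 0.17, adjusted p = 7.33e-07) and Gzmm at 15.8 ± 2.95 and 1.97 ± 0.649 (-3.0 ± 0.27, adjusted p = 3.41e-06). On the leukocyte scaling only Gzmm was called lower, Gzma turned to 0.25 and was not called (adjusted p = 0.221), and Gzmb and Gzmc to Gzmf were higher on both scalings.

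Genes for storing, activating and delivering granzymes were mostly lower on the usual scaling. Of 11 tested genes of this list, 3 were higher and 8 lower, with a median log2 difference of -1.01, but on the leukocyte scaling 8 were higher and 2 lower, with a median of 0.78 against 1.84 over all genes. Ctsc, cathepsin C, which activates granzymes by removing their propeptide, fell from 221 ± 23.6 to 46.2 ± 12.0 CPM, and Nkg7, a granule membrane protein, from 1459 ± 242 to 321 ± 57.6. Ctsl, the lysosomal protease cathepsin L, rose from 13.9 ± 5.24 to 1514 ± 158 CPM and Lamp1, a lysosome and granule membrane protein, from 196 ± 15.7 to 432 ± 19.9. Adjusted p-values for these 4 were 1.45e-06, 7.13e-07, 7.17e-08 and 6.71e-07 by edgeR, and Nkg7 was no longer called on the leukocyte scaling (log2 difference -0.37, adjusted p = 0.0761). Prf1, which encodes perforin and was chosen after its values were seen, stood at 1415 ± 240 and 555 ± 121 CPM (log2 difference -1.35 ± 0.17, adjusted p = 4.71e-05), and turned to 0.45 on the leukocyte scaling, while Gzmb was higher on both. Markers of mesenchymal and carcinoma cells were high in tuNK, as given above. Whether the added RNA of Ctsl and Lamp1, or of genes higher in the lists below, came from NK cells or other cells was not tested.

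Inhibitors of granzymes and chymases were tested for 7 of 14 listed genes, of which 3 were higher and 2 lower, with a median of -0.35; on the leukocyte scaling all 7 were higher, with a median of 1.45 against 1.84 over all genes. Serpinb6a, an intracellular inhibitor of cathepsin G, rose from 42.9 ± 4.80 to 482 ± 88.3 CPM (log2 difference 3.49 ± 0.15, adjusted p = 1.66e-08). Serpina3g rose by 0.95 ± 0.16 (adjusted p = 3.11e-04) and Serpina3f by 1.02 ± 0.33 (adjusted p = 0.0169, but 0.0561 without tuNK 4). Serpinb6b fell by 0.60 ± 0.13 (adjusted p = 0.00159), but was at 1.21 on the leukocyte scaling. Serpinb9, the inhibitor that protects killer cells from their own granzyme B and named after its values were seen, stood at 348 ± 50.5 and 266 ± 54.5 CPM. Its log2 difference of -0.39 ± 0.16 had an adjusted p of 0.0473 by edgeR, which rose to 0.0747 to 0.112 without spNK 1, 2 or 4 or tuNK 2 or 3 in turn, and it was 1.41 on the leukocyte scaling.

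Genes of granzyme B substrates and of proteins related to them were read in bulk RNA. The list is thus not one of direct substrates alone, and Dffb and Rock1 are on it beside Dffa and Rock2. Markers of mesenchymal and carcinoma cells were high in tuNK. Whether the RNA of the listed genes came from NK cells or from other cells was not tested. Of 14 tested genes of this list, 4 were higher and 8 lower, with a median of -0.64. On the leukocyte scaling 13 were higher and 0 lower, with a median of 1.19, below the 1.84 of all genes. Dffb, the caspase-activated DNase, changed by -2.19 ± 0.17 (adjusted p = 1.03e-06), Casp8, an initiator caspase, by -0.99 ± 0.11 (1.11e-05), Rock1, a kinase of the cytoskeleton, by -1.12 ± 0.16 (1.05e-04) and Mcl1, a survival protein, by -0.75 ± 0.11 (1.63e-04), all by edgeR. Of these, Casp8, Rock1 and Mcl1 turned to 0.83, 0.71 and 1.09 on the leukocyte scaling, and Dffb was no longer called (-0.37, adjusted p = 0.175).

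Of 39 genes for cytokine receptors, signalling and transcription factors known to act on granzyme genes, all tested, 12 were higher and 25 lower, with a median of -1.16; on the leukocyte scaling 22 were higher and 7 lower, with a median of 0.64. Rbpj, the DNA-binding partner of Notch, rose from 27.8 ± 4.13 to 292 ± 23.7 CPM (log2 difference 3.39 ± 0.12, adjusted p = 7.91e-09), and Fos, a subunit of AP-1, from 4.60 ± 0.299 to 302 ± 93.3 (6.04 ± 0.26, adjusted p = 4.01e-08). Tyk2, a kinase of the interleukin 12 receptor, fell from 162 ± 16.7 to 35.4 ± 3.84 CPM (-2.19 ± 0.11, adjusted p = 4.95e-08), and was at -0.38 on the leukocyte scaling (adjusted p = 0.0466). Eomes, a T-box factor of NK cells, fell from 404 ± 58.6 to 71.0 ± 8.30 (-2.51 ± 0.13, adjusted p = 5.61e-08). Tbx21, which encodes the T-box factor T-bet and was chosen after its values were seen, stood at 506 ± 78.6 and 56.8 ± 12.7 CPM (-3.15 ± 0.18, adjusted p = 1.97e-07) and was at -1.34 on the leukocyte scaling, while Eomes was at -0.69. Gzmb was thus higher, and both T-box genes lower, on either scaling.

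Genes whose profile over the 8 libraries was most like that of a member were sought outside the members. The candidates were 9524 genes that reached 10 CPM on average in at least 1 group, and no member was among them. The measure was the root mean square difference of centred log2(CPM + 0.5). These libraries share their depth, scaling and group contrast, so the measure is a description. Nearest to Gzmb were Hif1a at 0.132, Prmt2 at 0.154, Mypop at 0.170, Pfkl at 0.171 and Metrnl at 0.185. Hif1a, for example, stood at 70.1, 59.3, 56.1 and 60.3 CPM in spNK and 138, 144, 135 and 169 in tuNK. Nearest to Cma1 were Rhpn1 at 0.113, Slc6a4 at 0.288, Dtx1 at 0.335, Gp5 at 0.339 and Itga2b at 0.353. Rhpn1 stood at 30.6, 26.0, 14.4 and 24.9 CPM in spNK, lowest in spNK 3 like Cma1, and at 0 to 0.186 in tuNK. Summed NK cell markers were lowest in spNK 3 as well, at 13139 CPM. Slc6a4, Dtx1, Gp5 and Itga2b were instead highest in spNK 4, whereas Cma1 was highest in spNK 1. Itga2b, for example, stood at 126, 150, 155 and 233 CPM in spNK 1 to 4. The constant of 0.5 CPM sets these distances where tuNK levels are near 0: the fitted log2 differences were -7.70 for Rhpn1, -12.65 for Slc6a4, which is at 0 in all tuNK libraries, and -8.31 for Gp5, against -5.37 for Cma1. No candidate lay near Gzmc: the nearest were Grem1 at 0.739, Cpe at 0.746, Cldn6 at 0.761, Dpep2 at 0.775 and Rbp2 at 0.780. Its paralogs in the row, as members, were not ranked.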

How the data were processed

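RNA was measured by paired-end sequencing of poly(A) libraries made with a directional kit. Per the submitters' processing notes, reads were checked with FastQC 0.11.9 and processed with STAR and Salmon on GRCm38 (versions of STAR and Salmon are not named). The authors deposited merged gene tables of estimated counts and of TPM, and no column was without a sample. The reference is C57BL/6 and the cells are BALB/c; the effect was not tested.

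Rounded estimated counts were fitted with edgeR 4.0.16 (filterByExpr, TMM, robust quasi-likelihood test, Benjamini-Hochberg over 14006 genes, threshold 0.05) in R 4.3.3, after a test on simulated data. CPM uses TMM library sizes and a floor of 3 counts. Alternatives were other scalings, no filter, DESeq2 1.42.0, limma 3.58.1 on log2 TPM, offsets for length, a replicate block and leaving out each library; they were chosen, like the members, lists and markers, with earlier results of these data known. The genes named are all members, up to 4 per pathway list by adjusted p, genes in and beside the locus, and the 5 profiles nearest to Gzmb, Gzmc and Cma1; any other gene named, cell type markers and genes highest in tuNK 4 included, was chosen after its values were seen. Alignments, motifs and shared windows come from RefSeq promoters and GENCODE M21 transcripts.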

Additional observations from a re-analysis of the deposited data

Results flagged for a closer look

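In 8 of 14 groups of 4 libraries with values, the gap of the extreme library passed Dixon's 95% critical value. For normally distributed values chance gives about 1 in 20, a rate that need not hold for skewed CPM. Of these 8 groups, 7 concern tuNK 4, which was highest for Gzmc (848 CPM), Gzmd (186), Gzme (82.9), Gzmf (63.6), Gzmg (38.9), Mcpt8 (2.40) and Ctsg (0.638). The genes share a library and, for Gzmc to Gzmg, sequence, so these are not 7 separate events. The other is Mcpt8 in spNK 3, at 17.5 CPM.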

How the results depend on the processing

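The directions of Gzmb, Gzmc, Gzmd, Gzme, Gzmf, Cma1, Mcpt8 and Ctsg held under every alternative that gave a value. Scaling on leukocyte genes gave 11116 genes higher and 762 lower, against 4983 and 4761; it turned Casp8 to 0.83, Gzma to 0.25, Khnyn to 0.73, Mcl1 to 1.09, Prf1 to 0.45, Rock1 to 0.71, Serpinb6b to 1.21 and Serpinb9 to 1.41. Library size alone gave 4329 higher and 5510 lower, and log2(TPM + 1) 3978 and 5484. Without the filter 4 members were called higher, Gzmf (log2 difference 12.70) not among them. DESeq2 gave no adjusted p for Gzmd and called Mcpt8 lower, as did edgeR without spNK 2 or tuNK 4. Without tuNK 1, Gzmg was tested and 6 members were called higher. Deviations of same-numbered libraries correlated at -0.004 to 0.083, and 4 of 8 libraries correlated best with their own number. These values cannot tell whether same-numbered libraries came from the same animal, which no label states. A replicate block gave 4926 genes higher and 4629 lower, with 5 members higher and 2 lower. Leaving out 1 library gave 4754 to 5156 genes higher and 4549 to 4867 lower. Counts were few for Gzmg (8 to 57 in tuNK 1 to 3) and Ctsg (0 to 25 in tuNK), and Gzmn had 0 in all 8 libraries, which limits what can be said of their levels.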

Other observations

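Zbtb32, a zinc finger gene chosen after its values were seen, had the 15th highest ratio of tuNK 4 to the other tuNK libraries among the 11906 genes ranked, at 4.46. It stood at 5.69, 8.62, 9.20 and 34.9 CPM in tuNK 1 to 4 and at 0, 0, 1.00 and 0.0227 in spNK 1 to 4. Alox5, likewise chosen, the gene of arachidonate 5-lipoxygenase, stood at 0, 0.466, 0.305 and 3.27 CPM in tuNK 1 to 4 and reached 6.60 in spNK 3, the library in which Mcpt8 was highest.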
